A study of Hordeum vulgare with 6 samples.

Results

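Nitrate enters a plant cell through transporters of the plasma membrane, is reduced to nitrite in the cytosol and then to ammonium in the plastid. The barley genes NRT2.1 and nitrite reductase belong to this route, while NIGT1 encodes a regulator and carries out no step of it. The 3 genes are described here by level, position and upstream sequence. NIGT1 (HORVU2Hr1G020140) encodes a GARP-type transcriptional repressor, NRT2.1 (HORVU6Hr1G005720) a high-affinity nitrate transporter, and HORVU6Hr1G080750 nitrite reductase. They were taken from the gene table by these identifiers alone, and all 3 were found among 39841 listed genes. The names follow the study.

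In Arabidopsis, NIGT1 proteins are induced by nitrate and repress NRT2 genes, and PHR1, the main regulator of phosphate starvation genes, activates NIGT1 genes. PHR1 binds a short palindrome named P1BS, and NIGT1 proteins bind DNA with a GAATC core. NRT2 transporters work with a small partner protein of the NAR2 family, and nitrite reductase is a plastid stroma enzyme that takes its electrons from ferredoxin.

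Shoots of the barley line Rolap were sampled at 23 days, 3 seedlings to a pot, from plants kept at 22 °C with 16 h of light. Low-Pi plants grew in soil mixed with sand that held 8 mg of P per kg with none added, and control plants in the same soil with 60 mg of P per kg added as potassium phosphate. Each group had 3 libraries, and a library was 1 pot of plants. The gene table used here gives 1 level per gene, the higher of the 2 group means as the authors computed it. It does not say which group that mean belongs to, and it gives no value per library and no counts. The other group's mean can thus lie anywhere between 0 and the level given. No low-Pi against control difference, SD or test was obtained for any of these genes, and the depth behind the levels is unknown.

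The tissue label was read against 10 genes of the photosynthetic apparatus, all of which had a level above 0. The 6 nuclear genes for chlorophyll a-b binding proteins had levels of 67.7 to 411, and the 4 plastid genes rbcL, psbA, psaA and psaB had levels of 50.4 to 1387.

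The upstream sequence of NRT2.1 is shown first, because it was the only one of the 3 to hold a P1BS match in the bases read. The study extracted 2 kb before each gene, of which the first 399 bases were read here, the part lying farthest from the gene. NRT2.1 is on the minus strand. Its flank spans chr6H:12655480-12657479 when counted from the annotated gene start in the build IBSC_v2, and the bases read correspond to chr6H:12657081-12657479. That the stored sequence runs towards the gene was assumed and was not checked against a genome. The stretch below holds bases 225 to 374 of the stored window, 5′ to 3′, with P1BS matches in capitals.
NRT2.1 upstream: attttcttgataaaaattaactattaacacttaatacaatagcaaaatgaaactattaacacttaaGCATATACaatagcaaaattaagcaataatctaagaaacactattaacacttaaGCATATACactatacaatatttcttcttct

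P1BS was searched as GNATATNC on both strands; the motif is its own reverse complement, so that a match was counted once. The NRT2.1 window held 2 matches, at bases 291 and 345 of the window, and the NIGT1 and nitrite reductase windows held 0. These counts cover the 399 bases read and not the rest of the 2 kb, so they do not show that NIGT1 or nitrite reductase lacks the motif. Over the 2 kb, the study lists a P1BS match for NIGT1, outside the bases read here, and none for nitrite reductase. Among the 96 upstream windows read, 9 (9.38%) held the motif and 3 held it at 2 or more places. These windows belong to genes that the study picked out from its own comparison, so the share describes that set and not barley promoters in general. Both NRT2.1 matches had the same letters, GCATATAC, and they lay 1710 and 1656 bases before the annotated gene start.

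The NRT2.1 matches were part of a repeat. The 15 bases before each match and the 1 base after it were identical, giving a stretch of 24 bases that occurred at bases 276 and 330 of the window, 54 bases apart. The same 15 bases occurred once more at base 244, where no P1BS match followed. The 3 copies are shown with the bases that follow them, P1BS matches in capitals.
Copy at base 244: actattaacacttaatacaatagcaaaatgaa
Copy at base 276: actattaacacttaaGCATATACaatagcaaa
Copy at base 330: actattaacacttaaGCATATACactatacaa
The 15-base stretch was found in 1 of the 96 windows, that of NRT2.1. It had been taken from that window, so this count does not show that such repeats are particular to NRT2.1. In the 85 windows without unknown bases, the longest stretch occurring more than once had a median length of 9 bases and ranged from 6 to 43 bases. A repeat of 24 bases or more was found in 3 of them, NRT2.1 included. The longest repeat was 9 bases in the NIGT1 window and 14 bases in the nitrite reductase window.

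The NIGT1 core GAATC was found once in the window of NIGT1 itself, at base 262, which lies 1739 bases before the annotated gene start. It was found in neither the NRT2.1 nor the nitrite reductase window. The stretch around it is shown because NIGT1 proteins are known to bind this core, with the match in capitals.
NIGT1 upstream: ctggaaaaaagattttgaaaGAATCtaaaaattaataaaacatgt
The core was present in 48 of the 96 windows (50.0%), so that its presence in 1 of these 3 does not set NIGT1 apart. The palindrome GAATATTC, in which the GAAT of the core meets its own reverse complement, was found in 0 of the 96 windows. The P-responsive element ATGCCAT was found in 9 of the 96 windows (9.38%) and in none of the 3. The windows of NIGT1, NRT2.1 and nitrite reductase had GC contents of 43.4%, 42.9% and 46.6%, beside a median of 43.9% over the 85 windows without unknown bases. For each gene the bases nearest the start were not analysed here, so the search says nothing of motifs there.

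**Figure D1:**
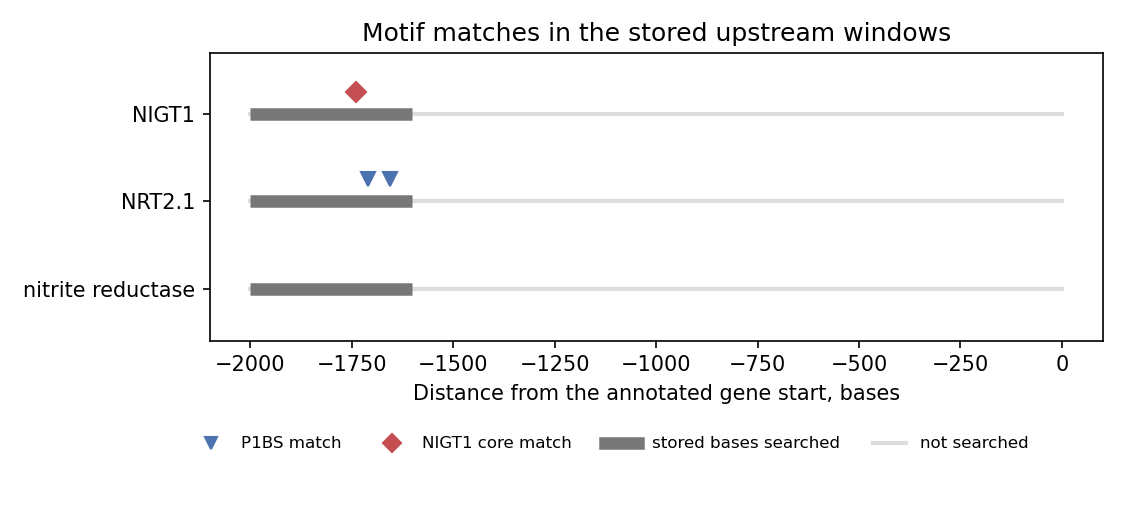
Motif matches in the upstream windows of NIGT1, NRT2.1 and nitrite reductase. The x axis is the distance from the annotated gene start in bases; the thick dark bar marks the 399 bases searched, the thin pale bar the bases not searched, triangles P1BS matches and the diamond the NIGT1 core. Within the bases searched, the 2 P1BS matches lie in the NRT2.1 window, 1710 and 1656 bases before the gene start.

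Nitrite reductase had the highest level of the 3 genes. Its level was 89.7, higher than 97.7% of the 27022 genes with a level above 0, and 625 listed genes stood above it. It accounted for 0.0152% of the summed level of all genes. Of the 10 photosynthesis genes, 5 nuclear genes and 1 plastid gene, psbA, were higher, while rbcL, psaA and psaB, each listed at 50.4 to 70.8, were lower. The study describes its shoot RNA sequencing as one of polyadenylated RNA. How fully such libraries hold plastid transcripts was not tested. The order of nitrite reductase and the plastid genes is thus one of listed levels, not of transcript amounts in the shoot.

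NIGT1 had a level of 7.45, which was higher than 79.8% of the genes above 0. The median of these genes was 1.22 and their upper quartile 5.39, so the repressor stood above the upper quartile of detected genes. On chromosome 2H, 833 of 4453 genes above 0 were higher than NIGT1.

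NRT2.1 had the lowest level of the 3, at 3.69. This was above the median of detected genes but below their upper quartile, and higher than 68.9% of them. The transporter was thus detected in shoots, in at least 1 of the 2 groups. On chromosome 6H, 957 of 3001 genes above 0 were higher than NRT2.1 and 73 were higher than nitrite reductase.

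Expressed as ratios of levels, nitrite reductase was 12.0 times NIGT1 and 24.3 times NRT2.1, and NIGT1 was 2.02 times NRT2.1. Both units that the methods name are per gene length, which allows a comparison between genes. The 2 levels of a ratio may still come from different groups, and no replicate error is attached to them. Whether the 2.02-fold gap between NIGT1 and NRT2.1 exceeds the spread between pots could not be examined.

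Further genes of the pathway to which the study gives identifiers are nitrate reductase and NAR2.2. The study names both as predicted targets of small RNAs in roots, with weaker scores, whereas the levels here are of shoots. Nitrate reductase (HORVU6Hr1G003300), the cytosolic enzyme that makes the nitrite, had a level of 25.5, higher than 92.4% of detected genes. NAR2.2 (HORVU5Hr1G115500), a partner protein of NRT2 transporters, had a level of 0.431, higher than 35.4% of them. The order of the 5 levels was therefore nitrite reductase, nitrate reductase, NIGT1, NRT2.1 and NAR2.2. The reducing enzymes stood at the top, with nitrite reductase 3.51 times nitrate reductase, and the transporter with its partner at the bottom, with NRT2.1 8.56 times NAR2.2. The last ratio rests on a level below 1 and depends on the scale, with a log2 value of 3.10 as given and of 1.71 after a pseudocount of 1 was added to both levels. In the absence of replicate values, no neighbours in this order can be said to differ beyond their spread. The 5 levels may also come from different groups, so the order and these ratios need not hold within either group.

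**Figure D2:**
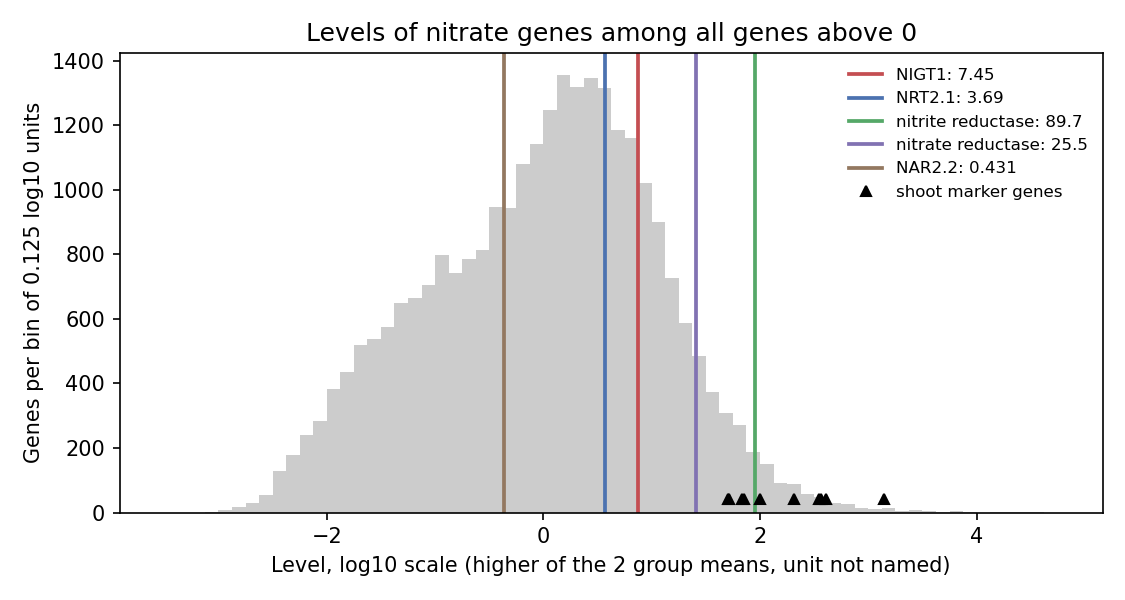
Levels of 5 nitrate genes among all 27022 genes with a level above 0. The x axis is the base-10 logarithm of the level (the higher of the 2 group means), the y axis the number of genes per bin; coloured lines mark the nitrate genes and black triangles the 10 photosynthesis genes. Nitrite reductase (89.7) lies among the photosynthesis genes, and NRT2.1 (3.69) and NIGT1 (7.45) lie right of the median of 1.22.

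The NAR2.2 and nitrate reductase levels carry a limit of their own. NAR2.2 lies wholly inside HORVU5Hr1G115490, a gene on the opposite strand with a level of 15.7, and nitrate reductase wholly inside HORVU6Hr1G002980, an annotated span of 696071 bases on the opposite strand with a level of 1.12. How strand was treated in counting is not given in the sources used here, so reads of such overlapping genes may not be separable. NIGT1, NRT2.1 and nitrite reductase overlapped no other listed gene. NRT2 transporters form a family of similar copies in barley, and how reads matching several copies were counted is likewise not given, which leaves the NRT2.1 level uncertain in that respect.

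In the build IBSC_v2, NIGT1 lies at chr2H:53458931-53461078, NRT2.1 at chr6H:12654106-12655479 and nitrite reductase at chr6H:542690955-542694406, all on the minus strand. Their annotated spans are 2148, 1374 and 3452 bases. The transporter and the enzyme share chromosome 6H but lie towards opposite ends, NRT2.1 12.7 Mb from the start of the chromosome and nitrite reductase 40.7 Mb before the end of its last listed gene. Nitrate reductase lies near the same chromosome end as NRT2.1, 7.70 Mb from the start. Exons, introns and untranslated regions were not analysed here.

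NIGT1 had 1 listed gene within 100 kb, HORVU2Hr1G020120, 71151 bases downstream on the other strand with a level of 1.46. Upstream, the next gene HORVU2Hr1G020150 was 193320 bases away and was listed at 0. Of the 12 genes within 500 kb, 7 were listed at 0, and 1, at 8.65, was higher than NIGT1. Among all 39841 listed genes, 32.2% were at 0 and 5459 were higher than NIGT1. These few neighbours therefore show no trait of the locus.

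NRT2.1 had a close neighbour upstream. HORVU6Hr1G005730 lies on the opposite strand and starts 2060 bases from the NRT2.1 start, so that both genes are transcribed away from the same interval. The 2-kb flank of NRT2.1 fills this interval except for 60 bases. On the assumed orientation, the P1BS matches lie 350 and 404 bases before HORVU6Hr1G005730, closer to it than to NRT2.1. HORVU6Hr1G005730 had a level of 4.38, beside 3.69 for NRT2.1. Its annotated span of 131239 bases encloses other listed genes, which limits its level in the same way as above. Downstream, HORVU6Hr1G005710 lay 34597 bases away with a level of 1.59. Of the 6 genes within 100 kb, 2 were higher than NRT2.1, and of the 28 within 500 kb 6 were higher. Among all 39841 listed genes, 8392 were higher.

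Nitrite reductase was followed at 93764 bases downstream by HORVU6Hr1G080740, listed at 0, and preceded at 15843 bases upstream by HORVU6Hr1G080760, with a level of 14.8. Both lie on the same strand as nitrite reductase. They were the 2 genes within 100 kb, and neither reached its level. Of the 16 genes within 500 kb, 10 were above 0 and 1, at 158, was higher. Among all 39841 listed genes, 27022 were above 0 and 625 were higher. The intervals before NIGT1 and nitrite reductase thus extend far beyond the 2 kb that the study extracted, while that of NRT2.1 ends close to it.

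**Figure D3:**
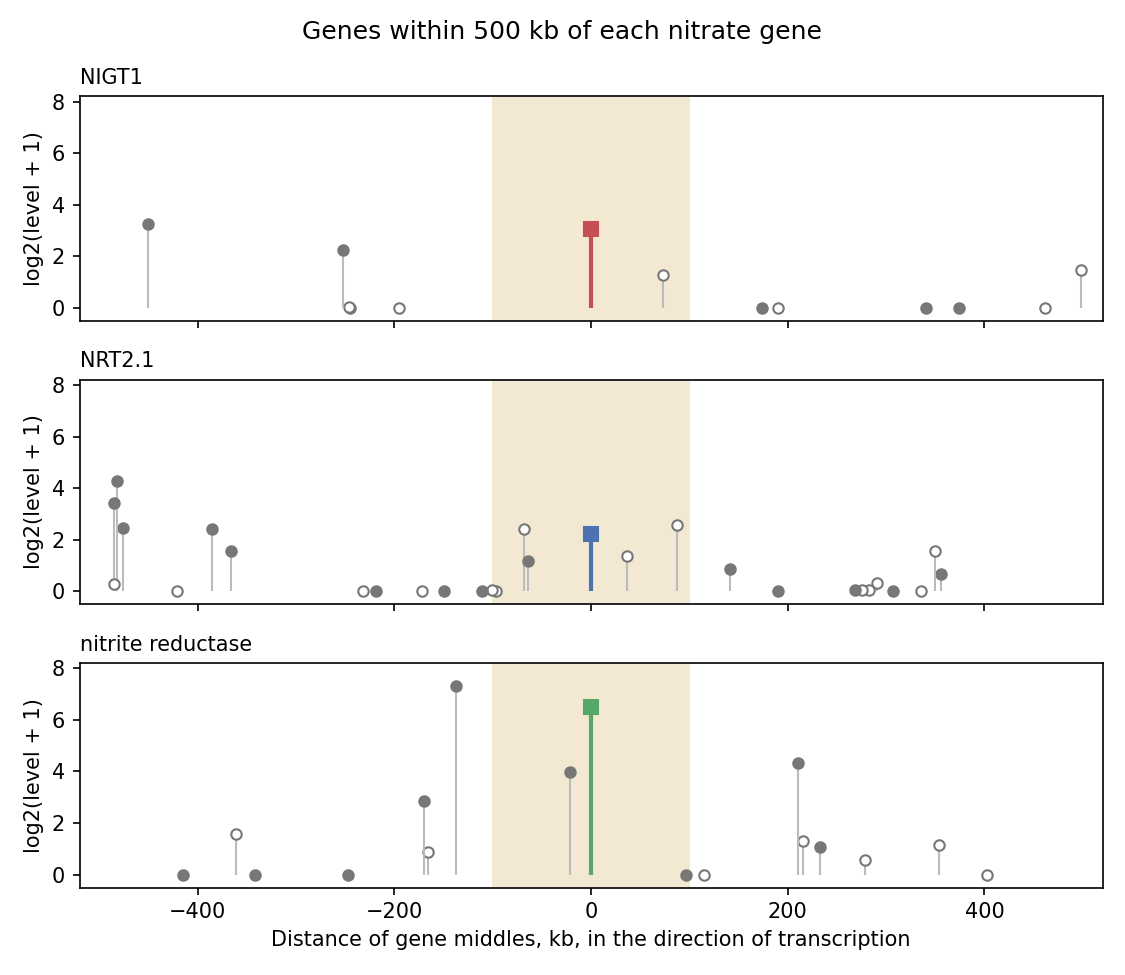
Listed genes within 500 kb of NIGT1, NRT2.1 and nitrite reductase. The x axis is the distance between gene middles in kb, positive in the direction of transcription of the nitrate gene, and the y axis is log2(level + 1). Squares are the nitrate genes, filled circles genes on the same strand, open circles genes on the opposite strand, and shading marks 100 kb either side. Nitrite reductase (level 89.7) has 1 higher neighbour, at 158, and NIGT1 (7.45) has 1, at 8.65.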

How the data were processed

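Messenger RNA libraries of barley shoots, 3 low-Pi and 3 control, were sequenced as read pairs with spike-in RNA. The authors mapped the reads with CLC Genomics Workbench to IBSC_v2 with the Ensembl Plants annotation; for the program version, the strand setting and reads with several matches, no source used here gives details. The deposited level is a signal per gene scaled to gene length and library size, and the column used is the higher of the 2 group means. The study's methods name both TPM and RPKM, so the unit was left unnamed; the levels summed to 589470.

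The 5 other value columns hold the authors' own comparison of low-Pi with control (fold changes on a log2 and a linear scale, p-values and their adjusted forms) and were not used. No per-library value was used, so no group comparison was fitted, and no precision or depth can be attached to a level.

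Percentiles, ratios, distances and motif matches were computed with Python 3.11.15. The searches for P1BS and for repeats were tested on simulated sequences, and percentiles and distances on small made-up examples. The ratios were not tested in this way. Upstream sequences came from the study's supplementary material, with 399 bases read per gene. Of the 5 nitrate genes, 0 matched an identifier in the RefSeq table used. The genes named were the 3 nitrate genes, their overlapping or nearest listed genes and 2 further genes of the pathway; genes and lists were chosen with earlier results of these data known.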

Additional observations from a re-analysis of the deposited data

How the results depend on the processing

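The percentiles depended on which genes a level was ranked among. With genes listed at 0 included, nitrite reductase ranked at 98.4%, NIGT1 at 86.3% and NRT2.1 at 78.9%. Among genes with a level of at least 1, the same genes ranked at 95.6%, 62.0% and 41.5%, so that NRT2.1 ranked below the middle there. Within its own chromosome NIGT1 ranked at 81.3% and NRT2.1 at 68.1%; the nitrite reductase percentile there, and those of the 3 genes on 1H to 7H alone, stayed within the counting interval of the main value. A pseudocount of 1 narrowed the ratios that involve NAR2.2 most, since its level is below 1. The log2 ratio of NRT2.1 over NAR2.2 was 1.71 with it and 3.10 without, that of NIGT1 over NAR2.2 2.56 and 4.11, that of nitrate reductase over NAR2.2 4.21 and 5.89, and that of nitrite reductase over NAR2.2 5.99 and 7.70. Among the 3 genes, the log2 ratio of NIGT1 over NRT2.1 was 0.85 with it and 1.01 without, that of nitrite reductase over NRT2.1 4.27 and 4.60, and that of nitrite reductase over NIGT1 3.42 and 3.59. Searching the given strand alone changed no motif count of the 3 genes. For P1BS and the palindrome GAATATTC no change was possible, since each is its own reverse complement. In the first 300 bases of the windows the NIGT1 core was present in 38.5%, against 50.0% in the whole windows. A shorter stretch has fewer places for a match, so the lower share does not show an effect of position. Leaving out windows with unknown bases, chosen after seeing the data, gave 9.41% for P1BS. With no value per library, the effect of leaving out a replicate could not be computed. No paired analysis was possible because the table used gives no value per library.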
